A study of Mus musculus with 3 samples.

Results

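The blood vascular endothelial cells of the mouse diaphragm were chosen by measured transcripts, as the droplet barcodes with 3 or more unique molecular identifiers (UMIs, each counting 1 captured transcript) summed over Pecam1, Flt1 and Ptprb, and with 0 UMIs of Ptprc, Pdgfra, Mmrn1 and Pax7, the marks of leukocytes, fibro-adipogenic progenitors, lymphatic endothelium and muscle stem cells. This rule kept 773 of 12275 barcodes, or 6.30% (95% Clopper-Pearson interval 5.87 to 6.74%). The study asked how long-term diet-induced obesity, and the loss of thrombospondin 1 (Thbs1), alter the mononuclear cells of the diaphragm. Diaphragms were digested, dead cells were excluded by flow cytometry, and the remaining cells were sequenced from the 3′ end of their transcripts in 3 libraries. The WT CD library came from male C57BL/6J mice given control diet for 6 months, the WT HFD library from male C57BL/6J mice given a high-fat diet with 45% of calories from lipid for 6 months, and the KO HFD library from male mice that lacked Thbs1 in the whole body (the B6.129S2-Thbs1tm1Hyn/J strain) and were given the same high-fat diet for 6 months. Each library pooled 2 mice, whose cells could not be separated, and no knockout library on control diet was analysed here. With 1 library a group there was no replicate and no test: intervals below cover counting error alone, and the effect of a diet or genotype cannot be told apart from that of a library.

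Muscle is perfused by a dense bed of capillaries whose endothelium controls what leaves the blood. Capillary cells hold lipoprotein lipase at their luminal face through the anchor protein Gpihbp1, take up the released fatty acids with the scavenger receptor Cd36, and carry them across the cell on the binding proteins Fabp4 and Fabp5. Arterial endothelium is specified by Notch signalling and meets the highest shear, whereas postcapillary venules are the site where leukocytes adhere, through P-selectin (Selp), E-selectin (Sele), Vcam1 and the chemokine receptor Ackr1.

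Depth was similar in the 3 sets of endothelial cells. The WT CD library held 274 of them among 4132 barcodes, with 1026905 UMIs in all and a median of 3258.5 UMIs and 1399.5 genes a cell. The WT HFD library held 272 among 3774, with 1136130 UMIs and medians of 3563 UMIs and 1543 genes. The KO HFD library held 227 among 4369, with 904681 UMIs and medians of 3326 UMIs and 1413 genes. The median barcode of the whole libraries was deeper, at 7632.5, 8041.5 and 7554 UMIs. Levels below are given as counts per 1000000 (CPM) of the UMIs summed over the endothelial cells of a library, in the order WT CD, WT HFD and KO HFD, and 3 UMIs, the most that a count of 0 allows, amounted to 2.92, 2.64 and 3.32 CPM. Because only the 3′ ends were counted, CPM does not scale with transcript length.

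The endothelial share of the barcodes was 6.63% in WT CD (95% Clopper-Pearson interval 5.89 to 7.43%), 7.21% in WT HFD (6.40 to 8.08%) and 5.20% in KO HFD (4.56 to 5.90%). The WT CD and WT HFD intervals overlapped, and the KO HFD interval lay below the WT HFD interval. Without the zero requirement the WT CD and WT HFD intervals did not overlap, at 8.30% (7.48 to 9.18%) and 10.5% (9.58 to 11.6%). The barcodes so added numbered 69 in WT CD and 126 in WT HFD, of which 35 and 79 held Mmrn1, the mark of lymphatic endothelium. These wider shares are thus not of blood endothelium alone. A lower share of barcodes can follow from fewer endothelial cells or from more cells of other types, which cannot be told apart. Among barcodes with at least 3000 UMIs the shares were 4.29, 5.14 and 3.27%.

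The label was checked against genes that the rule did not use. Over 16 other endothelial genes, among them Cdh5 (VE-cadherin, the adhesion molecule of endothelial junctions), Cldn5 and Tie1, the summed level was 8522 CPM in the 773 cells, against 74.0 CPM in leukocytes, 170 CPM in muscle stem cells, 1010 CPM in fibro-adipogenic progenitors and 5981 CPM in lymphatic endothelium. Here and below, these other classes were the barcodes with 1 or more UMIs of Ptprc, Pax7, Pdgfra and Mmrn1, in that order. Each class also had no UMI of the other 3 of these genes. The leukocytes, muscle stem cells and fibro-adipogenic progenitors had no UMI of Pecam1, Flt1 and Ptprb either, which by itself favours low endothelial levels in them. The lymphatic class had no such limit. The 26 barcodes just inside the threshold, with exactly 3 UMIs of the 3 genes, had 4185 CPM of the 16 genes, and the 47 barcodes just outside it, with 2 UMIs, had 2124 CPM. The barcodes just outside also had a median mitochondrial share of 9.86%, against 4.81% over the 773. Of 1054 barcodes with 3 or more UMIs of the 3 genes, the zero requirement removed 281, of which 157 had Mmrn1, 99 Pdgfra, 31 Ptprc and 11 Pax7. The rule genes themselves stood at 1020, 1095 and 987 CPM for Pecam1, 1680, 1613 and 1355 CPM for Flt1, and 1179, 1106 and 1086 CPM for Ptprb. A total of 16 barcode sequences occurred in 2 libraries, which touched 1 endothelial cell, and a doublet caller marked 1, 4 and 2 of the endothelial cells while marking 1.26, 1.09 and 1.33% of the libraries.

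Transcripts of several other cell types differed between the libraries. Those of fibroblasts, and in the HFD libraries those of mural cells, lay mostly in a small number of the cells. The 11 mural cell markers summed to 226, 1032 and 1280 CPM, with Rgs5 the most abundant in WT CD and Tagln in the others. The 5 cells richest in them held 36.6, 72.3 and 84.5% of these UMIs. The 12 fibroblast markers summed to 556, 827 and 1080 CPM, with Dcn leading in WT CD and WT HFD, Gsn leading in KO HFD, and 85.6, 85.4 and 88.0% of the UMIs in 5 cells. Leukocyte markers, 14 genes led by Lyz2, summed to 133, 455 and 9.95 CPM, with 97.1% of the WT HFD value in 5 cells and Cd3e at 0 throughout. Immunoglobulin transcripts with the J chain summed to 5860, 33.4 and 3.32 CPM. Each comparison below was repeated without every cell that held 3 or more UMIs of the mural, fibroblast, leukocyte or immunoglobulin genes, referred to as the cells that carried other cell types' markers, which left 247, 233 and 193 cells. UMIs of other types were no reason for removal, although 19, 34 and 33 cells held 3 or more myofibre UMIs. Lymphatic markers stayed low, at 52.6, 56.3 and 61.9 CPM for 8 genes, led by Flt4 and with Mmrn1 at 0 by the rule. The 12 myofibre markers, led by Acta1, summed to 199, 257 and 281 CPM. The UMIs of these 2 types were more spread out. The richest 5 cells held 21.1, 22.6 and 21.7% of the myofibre UMIs and 25.9, 18.8 and 26.8% of the lymphatic UMIs. Of the 7 adipocyte markers, Adipoq and Plin1 were at 0 in WT CD and KO HFD, and the sum in WT HFD was 40.5 CPM, all of it in 5 cells at most. The 7 muscle stem cell markers summed to 45.8, 91.5 and 211 CPM, of which Vcam1, also an endothelial gene, gave 42.8, 64.3 and 148 CPM.

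The cells held capillary, arterial and venous genes together. Fabp4, the cytosolic fatty acid binding protein, stood at 15248, 20433 and 18605 CPM. Cd36 stood at 1824, 2770 and 2301 CPM, and Gpihbp1 at 909, 1043 and 836 CPM. The aquaporins Aqp1 and Aqp7, channels for water and for glycerol, stood at 596, 682 and 542 CPM and at 207, 180 and 174 CPM. Other capillary genes were Rgcc (845, 870 and 809 CPM), Cd300lg (443, 485 and 380 CPM), Timp4 (168, 194 and 185 CPM) and Btnl9 (201, 361 and 315 CPM). All 14 capillary genes of the list were detected in all 3 libraries. Arterial genes were present together with them: Cxcl12 stood at 2548, 2440 and 2142 CPM, Stmn2 at 862, 684 and 867 CPM, Sox17, an arterial transcription factor, at 311, 312 and 324 CPM, and Gja5, the arterial gap junction protein connexin 40, at 65.2, 59.0 and 76.3 CPM. Venous genes were sparser in WT CD than in the HFD libraries, Lrg1 at 47.7, 244 and 118 CPM, Ackr1 at 14.6, 66.9 and 21.0 CPM and Selp at 5.84, 41.4 and 17.7 CPM.

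**Figure D1:**
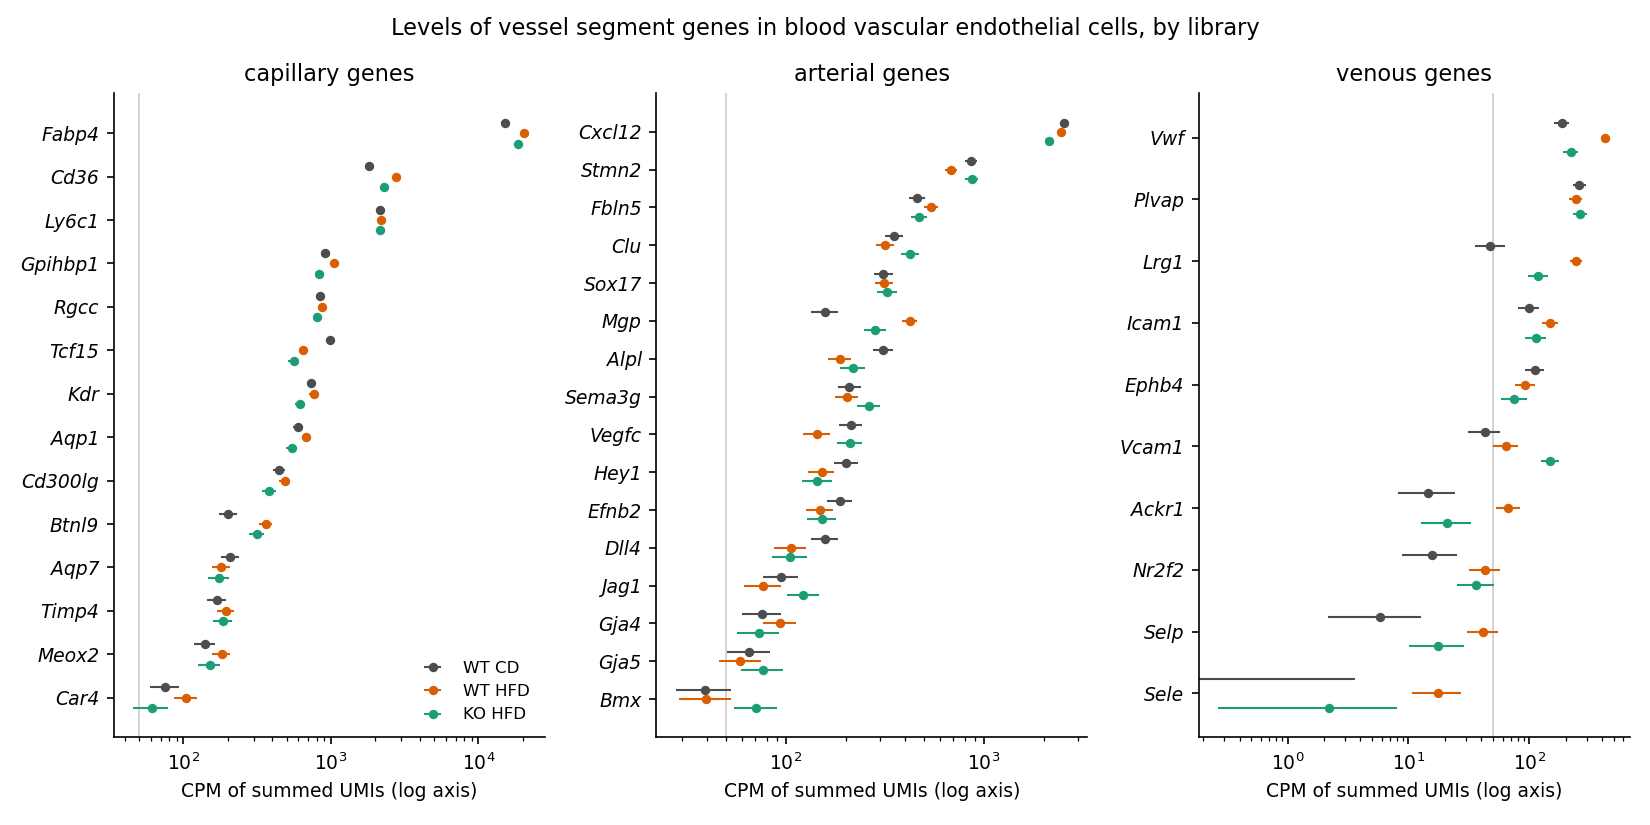
Levels of capillary, arterial and venous genes in the endothelial cells of each library (CPM of summed UMIs, log axis; points are the 3 libraries, bars are 95% Poisson intervals, and the grey line is 50 CPM). The 3 points of most capillary and arterial genes lie close together, while Vwf, Lrg1, Ackr1 and Selp are highest in WT HFD; Sele, with 0 UMIs in WT CD, is drawn there only as the upper bound.

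The segments separated when the cells were clustered without the 447 genes that differed 1.5-fold between any pair of libraries. Of 8 clusters, 2 led by Car4, Rgcc and Tcf15 or by Timp4, Aqp1 and Lpl were capillary-like and held 398 cells. A cluster of 194 cells led by S100a4, Tmem100 and Gja4 was arterial-like, with the stress genes Hspa1a, Hspa1b and Atf3 also among its leading genes. A cluster of 64 cells led by Ackr1, Lrg1 and Selp was venous-like. The other 4 stayed unnamed: 48 cells led by mitochondrial transcripts (median 12.4% mitochondrial UMIs and 1527.5 UMIs a cell), 28 led by interferon-induced genes such as Ifit3 and Isg15, 24 led by Igfbp5, Dcn, Col3a1 and Myh11 with a median of 9643 UMIs, and 17 led by Esm1, Plvap and Penk. Some of these leading genes were among those left out of the clustering, and all are given as a description. Sema3g and Alpl, both arterial genes, had 0 UMIs in the venous-like cells, where 3 UMIs are 8.98 CPM. Ackr1 had 0 UMIs in the capillary-like and arterial-like cells, where 3 UMIs are 2.34 and 3.21 CPM.

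Capillary-like cells formed 52.2, 52.6 and 49.3% of the endothelial cells in WT CD, WT HFD and KO HFD. Arterial-like cells formed 27.4% (22.2 to 33.1%), 21.3% (16.6 to 26.7%) and 26.9% (21.2 to 33.1%), with overlapping Clopper-Pearson intervals. Venous-like cells were 13 of 274, or 4.74% (2.55 to 7.98%), in WT CD, 32 of 272, or 11.8% (8.19 to 16.2%), in WT HFD, and 19 of 227, or 8.37% (5.11 to 12.8%), in KO HFD. The WT CD and WT HFD intervals of the venous-like share did not overlap, and the KO HFD interval overlapped both. The unnamed clusters together were 15.7, 14.3 and 15.4%. The capillary-like share depended on the clustering: at the higher resolution of 1 it was 31.8, 34.6 and 32.6%, and with all genes kept it was 19.7, 24.6 and 18.1%, in both cases with fewer cells in named clusters. The venous-like share at that resolution was the same, 4.74, 11.8 and 8.37%. Each cell was also assigned singly, to the segment whose genes' share of its UMIs was highest relative to the mean share over the endothelial cells. Venous cells were then 19.3, 22.4 and 18.9%, with overlapping intervals. That assignment gave arterial cells of 48.5% (42.5 to 54.6%) in WT CD, 32.4% (26.8 to 38.3%) in WT HFD and 40.5% in KO HFD, and capillary cells of 32.1% (26.6 to 38.0%), 45.2% (39.2 to 51.3%) and 40.5%, so that the WT CD and WT HFD intervals of both did not overlap, unlike those of the clusters.

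**Figure D2:**
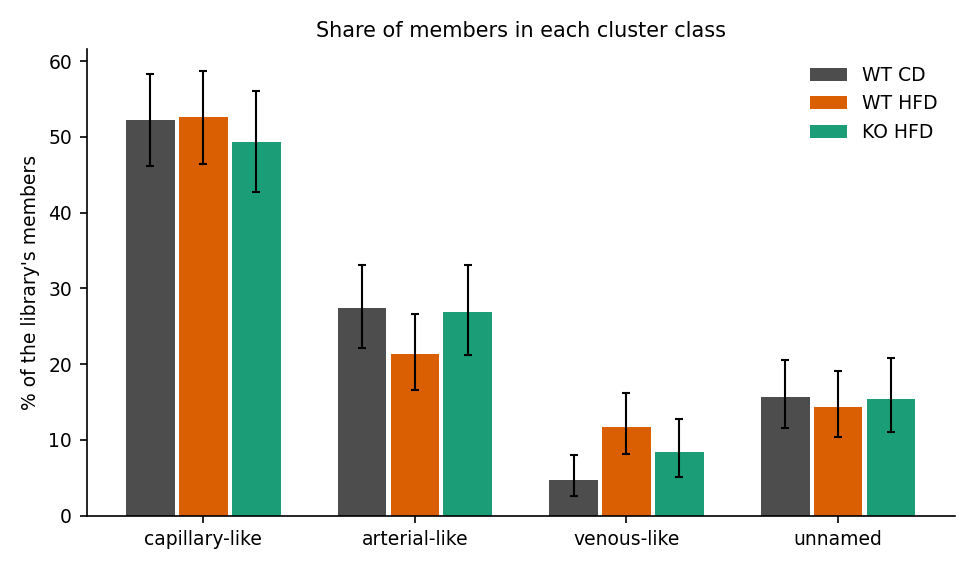
Share of the endothelial cells of each library in the capillary-like, arterial-like, venous-like and unnamed clusters (percent; bars start at 0, error bars are 95% Clopper-Pearson intervals). Capillary-like cells are near 50% of each library, and the venous-like share is 4.74% in WT CD against 11.8% in WT HFD.

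The first comparison asked what long-term high-fat feeding changed, WT HFD against WT CD. A gene is called higher or lower below when its CPM ratio reached 1.5-fold, the 95% interval of the ratio excluded 1, and its level was at least 50 CPM in either library. Of 3223 genes tested, 150 (4.65%) were called higher and 68 (2.11%) lower in WT HFD. When libraries were scaled by the trimmed mean of M-values, these counts were 121 and 106. The median log2 ratio over all tested genes was 0.01.

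Cd36, Fabp5 and Lpl of the fatty acid uptake list were called higher in WT HFD, and Tcf15 was called lower. Cd36 (chr5:17781690-17888801) was 1824 CPM in WT CD, 2770 in WT HFD and 2301 in KO HFD, so that both HFD libraries lay above WT CD, and its log2 ratio of WT HFD to WT CD was 0.60 (interval 0.52 to 0.69, a fold of 1.52). Fabp5 (chr3:10012548-10016607), a fatty acid binding protein that moves lipid ligands within the cell, was 628, 1024 and 842 CPM, with a log2 ratio of 0.70 (0.56 to 0.85). Lpl (chr8:68880491-68907448), the lipase that frees fatty acids from lipoproteins, was 198, 334 and 233 CPM, with a log2 ratio of 0.76 (0.51 to 1.01, a fold of 1.69). Fabp4 (chr3:10204088-10208576) had a log2 ratio of 0.42 (0.39 to 0.45), short of 1.5-fold, and Gpihbp1 one of 0.20 (0.07 to 0.32). Of the 15 genes of fatty acid uptake and binding, 10 of which reached 50 CPM, 3 were called higher and 1 was called lower. A positive ratio was found in 9 of the 13 with enough UMIs (median log2 ratio 0.20). The 1 lower gene was Tcf15 (chr2:152143561-152149097), a transcription factor of capillary endothelium known to promote Cd36 and Lpl expression, at 981, 650 and 558 CPM. Its log2 ratio was -0.59 (-0.73 to -0.46), a fold of 1.51 that lay just past the threshold. Without the cells that carried other cell types' markers it was -0.43, under the threshold. It was also not called without mitochondrial and ribosomal protein genes (-0.57), with a mean over cells (-0.48) or without the called doublets (-0.57). The same held without cells with mural or fibroblast UMIs (-0.41) and in capillary-like cells alone (-0.48). Cd36, Fabp5 and Lpl were still called without the cells that carried other cell types' markers, at 0.76, 0.76 and 0.89. The Cd36 ratio also lay close to the threshold, and it was 0.55 with scaling by the trimmed mean of M-values, 0.58 with a rule of 5 UMIs and 0.52 with the filter of 500 genes and 10% mitochondrial UMIs, none of them called. Lpl was called under every alternative run, and Fabp5 under all but the capillary-like cells alone, at 0.58. Meox2, the partner of Tcf15 in capillary endothelium, was 139, 181 and 150 CPM and not called.

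Of the other capillary genes, Btnl9 was called. Btnl9 (chr11:49165585-49187159), a butyrophilin-like membrane protein of capillary endothelium, was 201, 361 and 315 CPM, with a log2 ratio of 0.85 (0.60 to 1.10, a fold of 1.80), the largest among the 14 capillary genes. Btnl9, Cd36 and Tcf15 were the only members of that list called, although 12 of 14 had a positive ratio (median 0.20). Aqp7 had a log2 ratio of -0.20, and Rgcc was 845 against 870 CPM. Among 16 targets of the PPAR nuclear receptors and enzymes of fatty acid oxidation, Hadha, which catalyses steps of mitochondrial beta-oxidation, was called higher at 42.8, 74.8 and 65.2 CPM, with a log2 ratio of 0.80 that was 0.31 and not called in capillary-like cells alone. Of the 16, 8 reached 50 CPM. No member was called lower, 12 of the 15 with enough UMIs had a positive ratio, and the median was 0.36. Angptl4, a secreted inhibitor of lipoprotein lipase, was 17.5, 37.0 and 33.2 CPM and was under the level needed for a call.

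**Figure D3:**
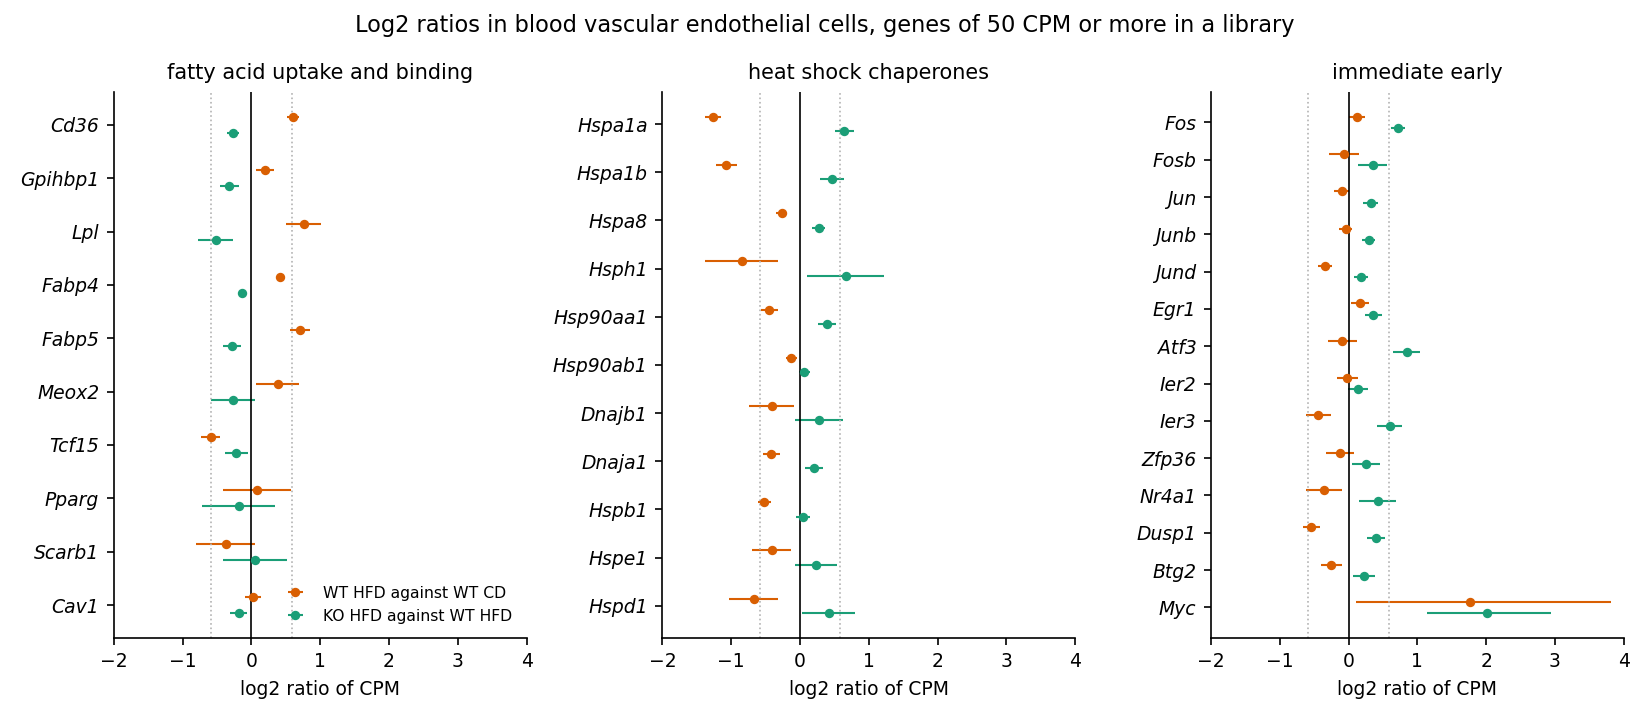
Log2 ratios of CPM for the genes of fatty acid uptake, heat shock and immediate early response with at least 50 CPM in a library, in WT HFD against WT CD and in KO HFD against WT HFD (points with 95% exact conditional intervals; dotted lines mark 1.5-fold). All 11 heat shock genes lie below 0 in the first comparison and above 0 in the second, and both comparisons share the WT HFD library.

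Venous genes were the list with the largest median among those of the vessel segments. Vwf (chr6:125546774-125686679), the von Willebrand factor stored by endothelium, was 186, 427 and 221 CPM, with a log2 ratio of 1.20 (0.95 to 1.45). Lrg1 (chr17:56119678-56122001), a secreted glycoprotein that modulates TGF-beta signalling in vessels, was 47.7, 244 and 118 CPM, with a log2 ratio of 2.35 (1.91 to 2.82, a fold of 5.11), and had UMIs in 13, 37 and 20 cells. Ackr1 (chr1:173331886-173333750), the atypical chemokine receptor of venules, was 14.6, 66.9 and 21.0 CPM, with a log2 ratio of 2.20, and had UMIs in 2, 17 and 8 cells. Their order across the libraries followed the venous-like share given above, lowest in WT CD and highest in WT HFD. Within the venous-like cells, Ackr1 was 295, 365 and 166 CPM with a log2 ratio of 0.31 (-0.52 to 1.22), whereas Lrg1 was 649, 1421 and 900 CPM with a log2 ratio of 1.13 (0.61 to 1.70) and Vwf 826, 1604 and 597 CPM with a log2 ratio of 0.96 (0.49 to 1.46). These ratios rest on 13 venous-like cells in WT CD. Without the cells that carried other cell types' markers, Vwf and Lrg1 were still called, at 0.93 and 2.41, and Ackr1 was under the level needed. In capillary-like cells alone none of the 3 was called, Vwf at 0.26 and the others under the level needed. Of 10 venous genes, 7 of which reached 50 CPM, 3 were called higher and none lower. When mitochondrial and ribosomal protein genes were left out, 7 were called higher and none lower. With all genes, 8 of the 10 had a positive ratio (median 1.33). In the capillary-like cells alone that median was 0.48.

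In the arterial list of 16, 15 of which reached 50 CPM, 1 gene was called lower and 1 higher (median log2 ratio -0.14). When libraries were scaled by the trimmed mean of M-values, 3 were called lower and 1 higher. Alpl, tissue-nonspecific alkaline phosphatase, was 309.7, 187 and 218 CPM, with a log2 ratio of -0.72 (-0.98 to -0.47), and it was not called with a mean over cells, at -0.53. In the arterial-like cells its ratio was -0.23 (-0.59 to 0.12) against -1.16 (-1.66 to -0.67) in the capillary-like cells. Mgp, matrix Gla protein, was called higher at 157, 422 and 282 CPM, but 58.5% of its WT HFD UMIs came from 1 cell, and its ratio was -0.59 without the cells that carried other cell types' markers. Of 11 Notch genes, 7 of which reached 50 CPM, none was called in this comparison, and 2 of the 10 with enough UMIs had a positive ratio (median -0.25). With scaling by the trimmed mean of M-values, with a rule of 5 UMIs or without the cells that carried other cell types' markers 1 was called lower. The receptor Notch1 was 226, 173 and 155 CPM, its arterial ligand Dll4 158, 106 and 105 CPM, and its target Hey1 202, 151 and 144 CPM. Their log2 ratios were -0.39, -0.58 and -0.41, each with an interval below 0 and each under 1.5-fold.

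Cyp26b1 (chr6:84571414-84593908), a cytochrome P450 that degrades retinoic acid, was among the 10 genes with the largest negative ratios. It was 129 CPM in WT CD against 24.6 in WT HFD and 21.0 in KO HFD, and had UMIs in 56, 16 and 9 cells. Both HFD libraries thus lay far below WT CD, with a log2 ratio of WT HFD to WT CD of -2.38 (-3.03 to -1.79, a fold of 5.22). In capillary-like cells it was 219, 32.2 and 35.3 CPM, and in venous-like cells 216, 44.2 and 68.5 CPM. Over the alternative ways of processing its ratio ran from -2.77 to -2.36. In fibro-adipogenic progenitors of the same libraries Cyp26b1 was 9.60, 3.39 and 6.41 CPM.

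Of 11 heat shock chaperones, 4 were called lower in WT HFD. Heat shock factor 1, when activated by misfolded protein, binds inverted repeats of the bases GAA near the start of these genes. Hspa1a and Hspa1b, the stress-inducible HSP70 genes, Hsph1, an HSP110 nucleotide exchange factor, and Hspd1, the mitochondrial HSP60 chaperonin, were those called, and none was called higher. Their promoters are shown because all 4 hold such a repeat. Of the 11 genes, 8 had a promoter window in RefSeq (GRCm38.p6). In the 250 bases before the start, the motif GAANNTTC was in 6 of the 8 and TTCNNGAA in 3, 7 having either, but Hspa1a and Hspa1b hold the same letters and Hspd1 and Hspe1 share 1 stretch read from opposite strands, so these are 5 distinct stretches, whereas of all 32851 windows 6.69% held the first, 7.17% the second and 12.8% either. Both motifs read the same on both strands and may overlap each other. Capitals mark the matches, which are a description of the letters and not of bound sites. The stretches are on the minus strand, at chr17:34972229-34972284 for Hspa1a, chr5:149636338-149636393 for Hsph1 and chr1:55088035-55088100 for Hspd1, and the first match began 104, 33 and 144 bases before the start. That start is that of the RefSeq window, which for Hsph1 and Hspd1 lies inside the gene interval of the annotation used for the coordinates below, so that their matches fall within that interval. The Hspa1b stretch, at chr17:34959311-34959366, has the same letters as that of Hspa1a.
Hspa1a: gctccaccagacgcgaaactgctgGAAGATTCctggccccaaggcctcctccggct
Hsph1: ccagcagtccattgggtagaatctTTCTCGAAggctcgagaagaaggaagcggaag
Hspd1: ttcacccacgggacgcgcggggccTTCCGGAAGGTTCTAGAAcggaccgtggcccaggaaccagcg

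Hspa1a (chr17:34969190-34972156) was 1786 CPM in WT CD, 746 in WT HFD and 1168 in KO HFD. WT HFD was the lowest of the 3, with a log2 ratio to WT CD of -1.26 (-1.38 to -1.14, a fold of 2.39). Hspa1b (chr17:34956436-34959238) was 946, 451 and 623 CPM, with a ratio of -1.07. As near-identical copies, Hspa1a and Hspa1b can share reads, so the split between them is uncertain. Hsph1 (chr5:149614287-149636376) was 78.9, 44.0 and 69.6 CPM, with a ratio of -0.84, and Hspd1 (chr1:55077835-55088243) was 159, 99.5 and 133 CPM, with a ratio of -0.67. In capillary-like cells alone Hsph1 was -0.54 and Hspd1 -0.28, neither of them called, and Hsph1 was also not called with a mean over cells, at -0.47. The calls of Hspa1a and Hspa1b in WT HFD against WT CD held under every alternative run. All 11 chaperones had a negative ratio (median -0.45), including the 7 that were not called, such as Hspa8 (2240, 1862 and 2245 CPM) and Hspb1 (2210, 1546 and 1596 CPM). Hspa1a had a lower level in WT HFD than in WT CD within each segment, with log2 ratios of -0.95 in capillary-like, -1.19 in arterial-like and -1.05 in venous-like cells. Other cell classes of the libraries gave Hspa1a ratios of -1.003 in fibro-adipogenic progenitors, -1.19 in muscle stem cells, -0.93 in lymphatic endothelium and -0.01 in leukocytes. Heat shock transcripts are known to respond to tissue digestion, and the part of cell handling in these values was not tested.

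Further pathways gave few calls. In the basement membrane list of 13, 10 of which reached 50 CPM, Lamb1, a laminin chain, was called higher at 57.5, 103 and 87.3 CPM. A positive ratio was found in 11 of 13 (median 0.35), among them Sparc at 1163, 1482 and 1150 CPM and Col4a1 at 755, 918 and 800.3 CPM. Among 12 VEGF and Tie genes, 6 of which reached 50 CPM, Nrp2, a co-receptor for VEGF and semaphorins, was called higher at 77.9, 144 and 126 CPM. It was not called in capillary-like cells alone, at 0.48. The receptors Kdr (737, 762 and 618 CPM) and Tek (215, 206 and 208 CPM) were not called. None of the 12 tip cell genes, of which 3 reached 50 CPM, and none of the 13 genes of vascular tone, of which 10 did, was called, but 2 tip cell genes were called lower with scaling by the trimmed mean of M-values. Nos3, the endothelial nitric oxide synthase, was 119, 100.3 and 99.5 CPM, and Klf2, a transcription factor induced by flow, was 2916, 2376 and 2909 CPM. In the TGF-beta and BMP list of 17, 11 of which reached 50 CPM, Id2, an inhibitor of basic helix-loop-helix factors, was called lower at 165, 103 and 128 CPM. It was not called with a rule of 5 UMIs, at -0.51, or without cells with mural or fibroblast UMIs, at -0.46. Its relative Id1 was 1553, 1168 and 1270 CPM without reaching 1.5-fold. Of 11 junction genes, 9 of which reached 50 CPM, only Gja1, the gap junction protein connexin 43, was called. It was lower, at 107, 67.8 and 71.8 CPM, while Cdh5 was 1179, 1091 and 947 CPM. Among 16 interferon response genes Irf7 and Ifi27l2a were called higher and Stat2 lower, with a median of -0.11. When libraries were scaled by the trimmed mean of M-values, 2 were called higher and 3 lower. Irf7 was not called with a mean over cells (0.55) or with the filter of 500 genes and 10% mitochondrial UMIs (0.56), and Stat2 was under the level needed with that filter and without its top cell. In capillary-like cells alone the interferon median was 0.51, with 7 called higher and none lower, none of the 7 being Irf7 or Ifi27l2a, and without the cells that carried other cell types' markers it was 0.03. The chemokine Cxcl1 was called higher at 59.4, 98.6 and 96.2 CPM, and the glycolytic enzyme Pgk1 at 49.7, 79.2 and 69.6 CPM.

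Several of the most extreme ratios rested on 1 cell or on cells with other cell types' markers. The 10 genes with the largest positive ratios were Igfbp5, Retnla, Myh11, Acta2, Pf4, Cpe, Ndufa4l2, Rarres2, Hist1h2ap and Myl9, several of which are genes of smooth muscle (Myh11, Acta2 and Myl9) or macrophages (Retnla and Pf4). Retnla was 7.79, 406 and 5.53 CPM, with 97.8% of its WT HFD UMIs in 1 cell. Acta2, smooth muscle actin, was 16.6, 253 and 358 CPM, with UMIs in 11, 19 and 18 cells. None of these 10 was still called once the cells with other cell types' markers were removed, a removal that used Myh11 and Acta2 themselves as mural markers. With each gene's top cell left out, Acta2, Igfbp5, Myh11 and Myl9 were still called. At the other end stood Ighm, Jchain, Igkc, Ighv5-4, Wdcp, 2810403D21Rik, Cyp26b1, Itm2a, Mknk2 and Rps27rt, of which the immunoglobulin genes had nearly all their UMIs in 1 WT CD cell (98.8% for Ighm). After the same removal, which used Ighm, Igkc and Jchain themselves, 5 of these 10 were still called lower, namely 2810403D21Rik, Cyp26b1, Igkc, Mknk2 and Rps27rt. The 4 class II antigen presentation genes H2-Aa, H2-Ab1, H2-Eb1 and Cd74 were called higher, Cd74 at 130, 354 and 14.4 CPM, and over the 8 MHC genes the median ratio was 0.71 with all cells and 0.04 without those cells. Gja1, at -0.50, and Cxcl1, at 0.59, were also no longer called without those cells. In all, 13 of the 150 genes called higher had 50% or more of their UMIs in 1 cell, and 114 had under 20%.

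**Figure D4:**
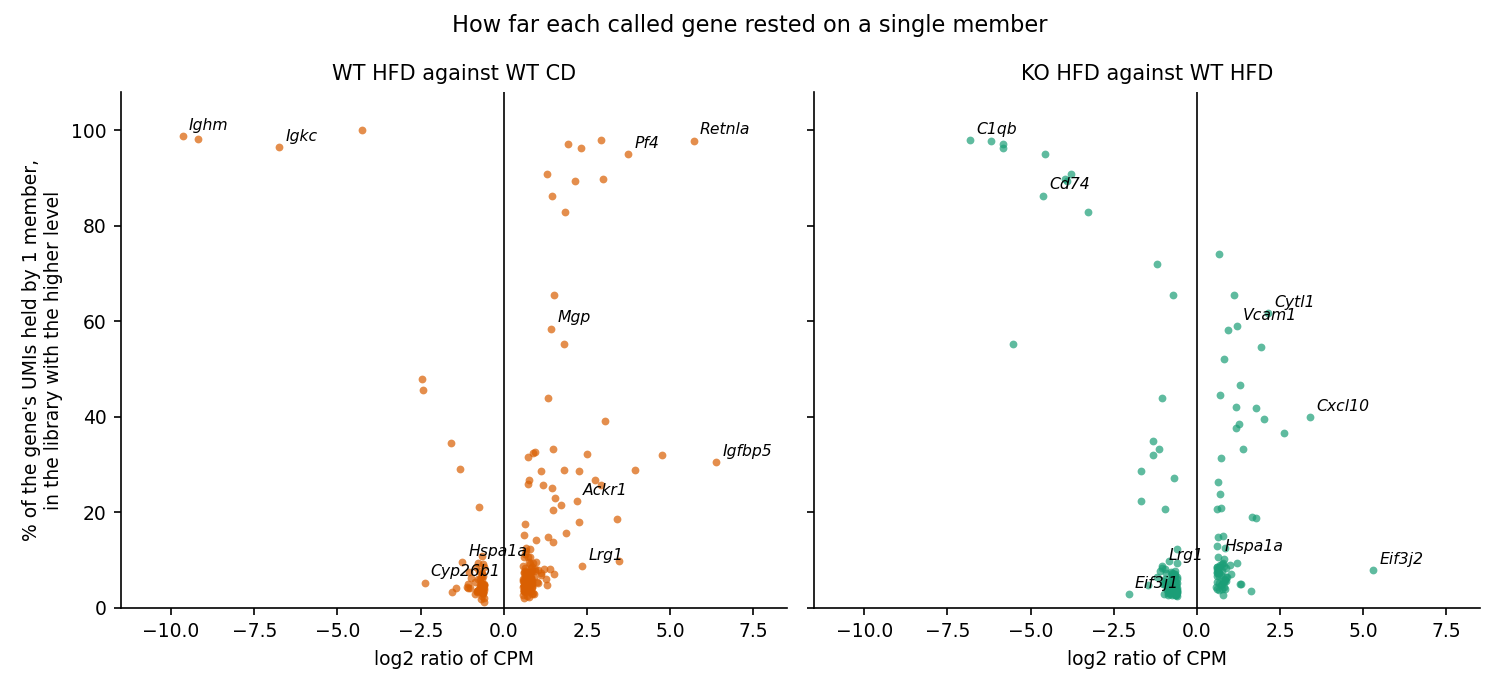
For each gene called in either comparison, the log2 ratio (x axis) against the percent of its UMIs that came from 1 cell of the library in which it was higher (y axis). Most called genes lie under 20%, and several of the most extreme ratios, such as those of Retnla and the immunoglobulin genes, lie near 100%, whereas Igfbp5 and Eif3j2 do not.

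The second comparison asked what the loss of Thbs1 changed under the high-fat diet, KO HFD against WT HFD. It shares the WT HFD library with the first comparison, so an unusual level in that library alone moves both ratios in opposite directions. Thbs1 (chr2:118111876-118127133) was 7.79 CPM in WT CD, 30.8 in WT HFD and 31.0 in KO HFD, from 8, 35 and 28 UMIs in 6, 11 and 19 cells. Because the assay reads the 3′ end, outside the deleted part, this level does not check the genotype. Of the 35 WT HFD UMIs, 28 lay in the 12 WT HFD cells of the unnamed cluster led by Igfbp5, Dcn and Myh11. Without the cells that carried other cell types' markers Thbs1 had 7, 1 and 12 UMIs, or 7.97, 1.15 and 18.0 CPM. All these levels are under the level needed for a call. Of the receptors and partners of thrombospondin 1, Cd47 was 330.1, 350 and 343 CPM, Itgb1 592, 635 and 612 CPM and Calr 292, 331 and 284 CPM. None of the 10 genes of that list was called between KO HFD and WT HFD, and 4 of them reached the level needed for a call. Thbs4 was 14.6, 14.1 and 0 CPM, the last being 0 UMIs.

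Of 3216 genes tested, 73 (2.27%) were called higher and 107 (3.33%) lower in KO HFD than in WT HFD, or 91 and 89 with scaling by the trimmed mean of M-values. The median log2 ratio over all tested genes was -0.00.

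Immediate early genes, the first transcripts to respond to growth factors, flow or stress, gave 4 calls of 14 in KO HFD, all higher. Fos (chr12:85473890-85477273), a subunit of the AP-1 transcription factor, was 1091, 1191 and 1963 CPM, with a log2 ratio of KO HFD to WT HFD of 0.72 (0.62 to 0.82). Over all cells the WT CD level of Fos lay close to that of WT HFD, and KO HFD stood apart from both. Atf3, a stress-induced repressor, was 360, 338 and 607 CPM, with a log2 ratio of 0.84 (0.65 to 1.04), and Ier3 was 542, 399.6 and 605 CPM, with a ratio of 0.60 that fell to between 0.53 and 0.58, and was not called, under 5 of the alternatives. Myc was 3.90, 13.2 and 53.1 CPM, with 39.6% of its KO HFD UMIs in 1 cell, and was not called without the cells that carried other cell types' markers, whereas Fos, Atf3 and Ier3 were. All 14 had a positive ratio (median 0.36), Egr1 at 840, 942 and 1210 CPM and Jun at 1407, 1312 and 1638 CPM among those not called. Fos was higher in KO HFD than in WT HFD in each segment, with log2 ratios of 1.35 (0.99 to 1.71) in capillary-like, 0.48 (0.34 to 0.62) in arterial-like and 0.74 (0.46 to 1.02) in venous-like cells. For the list as a whole the capillary-like cells differed from the sum: there its median was -0.48 in WT HFD against WT CD, with 5 called lower, and 0.64 in KO HFD against WT HFD, with 7 called higher, so that WT HFD was the low library in both. In the other classes the Fos ratios were 0.20 in fibro-adipogenic progenitors, -0.14 in leukocytes, 0.20 in lymphatic endothelium and -0.19 in muscle stem cells.

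Of the 11 heat shock chaperones, 2 were called higher in KO HFD than in WT HFD and none lower. Hspa1a had a log2 ratio of 0.65 (0.51 to 0.78) and Hsph1 one of 0.66, and with the filter of 500 genes and 10% mitochondrial UMIs neither was called. Without the cells that carried other cell types' markers Hspa1a was 0.80 and Hsph1 0.27, no longer called. All 11 had a positive ratio (median 0.28), the smallest being 0.05 for Hspb1. The direction of Hspa1a was not shared by the segments: its ratio was 0.99 (0.74 to 1.24) in capillary-like and 0.42 (0.25 to 0.60) in arterial-like cells, and -1.59 (-2.81 to -0.55) in venous-like cells, where the 3 libraries had 550, 265 and 88.0 CPM.

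Of the venous genes, Vwf, Lrg1 and Ackr1 were called lower in KO HFD and Vcam1 higher. Vwf had a log2 ratio of -0.95 (-1.19 to -0.71), Lrg1 of -1.04 (-1.38 to -0.72) and Ackr1 of -1.67. Without the cells that carried other cell types' markers Vwf was -0.88 and Lrg1 -2.81, both called, and Ackr1 was under the level needed. Within the venous-like cells the log2 ratio of Vwf was -1.43 (-1.85 to -1.02), of Lrg1 -0.66 (-1.02 to -0.31) and of Ackr1 -1.13 (-1.997 to -0.35). Their KO HFD levels over all cells were nearer to WT CD than to WT HFD for Vwf, at 186, 427 and 221 CPM, and for Ackr1. The leukocyte adhesion molecule Vcam1 was called higher, at 42.8, 64.3 and 148 CPM, with 59.0% of its KO HFD UMIs in 1 cell and a log2 ratio of 0.07 without the top cell of each library. Sele was 0, 17.6 and 2.21 CPM, under the level needed for a call. Of the 10 venous genes, 7 of which reached 50 CPM, 3 were called lower, 1 was called higher, and 2 had a positive ratio (median -0.67).

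Of the capillary and fatty acid genes, 1 was called in KO HFD. None of the 14 capillary genes had a positive ratio, with a median of -0.24. Car4, the membrane-bound carbonic anhydrase of capillary endothelium, was 75.0, 104 and 60.8 CPM, with a log2 ratio of -0.77 (-1.26 to -0.30), the only call. Cd36 had a log2 ratio of -0.27 (-0.35 to -0.19), Fabp5 of -0.28 and Lpl of -0.52 (-0.77 to -0.27), which left all 3 above WT CD. Btnl9, at a log2 ratio of -0.20, and Meox2, at -0.27, were not called. Of the 15 genes of fatty acid uptake and binding, 10 of which reached 50 CPM, none was called (1 lower with a mean over cells) and 2 of the 12 with enough UMIs had a positive ratio. Cyp26b1, at 24.6 against 21.0 CPM, was under the level needed for a call.

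Among arterial and Notch genes, Jag1, a Notch ligand, was called higher at 94.5, 76.6 and 123 CPM, with a log2 ratio of 0.68 (0.26 to 1.10) that was 0.47 and not called with a mean over cells, and Bmx, a tyrosine kinase of arterial endothelium, at 39.0, 39.6 and 70.7 CPM, with a ratio of 0.84 (0.26 to 1.42). The other arterial genes were not called, and 10 of 16 had a positive ratio (median 0.13). In the interferon list Irf1, a transcription factor induced by interferon gamma, was called higher at 176, 158 and 285 CPM and the GTPase Irgm1 at 96.4, 65.1 and 119 CPM, while Isg15 was 360, 333 and 406 CPM. The median of the 16 was 0.26, against -0.29 in capillary-like cells alone and -0.04 without the cells that carried other cell types' markers. Irgm1 had a log2 ratio of -0.15 in capillary-like and 1.01 in arterial-like cells. The chemokine Cxcl10 was called higher at 42.8, 5.28 and 55.3 CPM, but without the cells that carried other cell types' markers its log2 ratio was 0.71, and both there and without its top cell it was under the level needed for a call. No gene was called among the 9 of 13 vascular tone, 9 of 11 junction, 10 of 13 basement membrane, 6 of 12 VEGF and Tie, 3 of 12 tip cell, 12 of 17 TGF-beta and BMP, 6 of 12 hypoxia and glycolysis and 8 of 16 PPAR target genes that reached 50 CPM, and the rest could not be called. Under single alternatives the junction list still had no call and each of the other lists at most 1 in a direction.

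Of the 10 genes with the largest positive ratios in KO HFD, Eif3j2, Cxcl10, 2810403D21Rik, Cytl1, Myc, Pi16, Meg3, Gkn3, Phlda1 and Sf3b4, 5 were still called without the cells that carried other cell types' markers, namely 2810403D21Rik, Cytl1, Eif3j2, Gkn3 and Sf3b4. Pi16 was itself a fibroblast marker used in that removal. Gkn3, a gastrokine, was 36.0, 27.3 and 94.0 CPM in 17, 14 and 20 cells, and the splicing factor gene Sf3b4 was 39.0, 20.2 and 63.0 CPM in 36, 23 and 46 cells. Eif3j1 (chr2:122028546-122056598), which encodes a subunit of translation initiation factor 3, was lower in KO HFD at 115, 124 and 29.8 CPM, a fold of 4.16, while its paralog Eif3j2 was 0.974, 1.76 and 69.6 CPM. Both are near-identical copies that can share reads, so their separate values are uncertain. Eif3j1 was also lower in the other classes, with log2 ratios of KO HFD to WT HFD of -2.04 in fibro-adipogenic progenitors, -2.63 in leukocytes, -2.81 in lymphatic endothelium and -1.61 in muscle stem cells. Reads can be shared in every class, so these values do not lessen that uncertainty. Eif3j1 lies on the chromosome of Thbs1. Of 29 tested genes within 10 Mb of Thbs1, Fbn1 and Mtln were called higher and Eif3j1 lower, 10.3% against 5.60% of all tested genes. The 10 largest negative ratios were those of C1qb, Retnla, Lyz2, C1qa, Cilp, Cd74, Pf4, Hist1h2ap, H2-Aa and H2-Eb1, most of them macrophage genes. Each of these but Cilp had 86.3% or more of its WT HFD UMIs in 1 cell. None of the 10 was called once the cells with other cell types' markers were removed, a removal that used C1qa, C1qb and Lyz2 themselves as leukocyte markers.

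Values within the segments showed which differences were shared by capillary-like, arterial-like and venous-like cells. Cd36 was 2348, 4001 and 3425 CPM in capillary-like cells and 1436, 2135 and 1711 CPM in arterial-like cells, with log2 ratios of WT HFD to WT CD of 0.77 (0.66 to 0.88) and 0.57 (0.40 to 0.75). In venous-like cells it was 1848, 1842 and 1712 CPM, with a ratio of -0.00 (-0.34 to 0.34), so the interval of the venous-like cells lay below those of the others. Fabp4 ratios were 0.47 in capillary-like, 0.61 in arterial-like and -0.42 (-0.53 to -0.32) in venous-like cells. Lpl was concentrated in the capillary-like cells, at 348, 693 and 497 CPM with a ratio of 0.99 (0.72 to 1.27), against 25.7, 87.5 and 53.7 CPM in arterial-like cells. Btnl9 was 238, 496 and 471 CPM in capillary-like and 186, 357 and 329 CPM in arterial-like cells, and had 1 UMI in all venous-like cells. Gpihbp1 was 1463, 1796 and 1707 CPM in capillary-like cells. Tcf15 was lower in WT HFD in all 3, with ratios of -0.48, -0.41 and -1.69, of which the capillary-like and arterial-like values were under 1.5-fold. Stmn2 was 666, 414 and 530 CPM in capillary-like cells and 1294, 1425 and 1614 CPM in arterial-like cells, where its level did not follow that of the capillary-like cells.

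**Figure D5:**
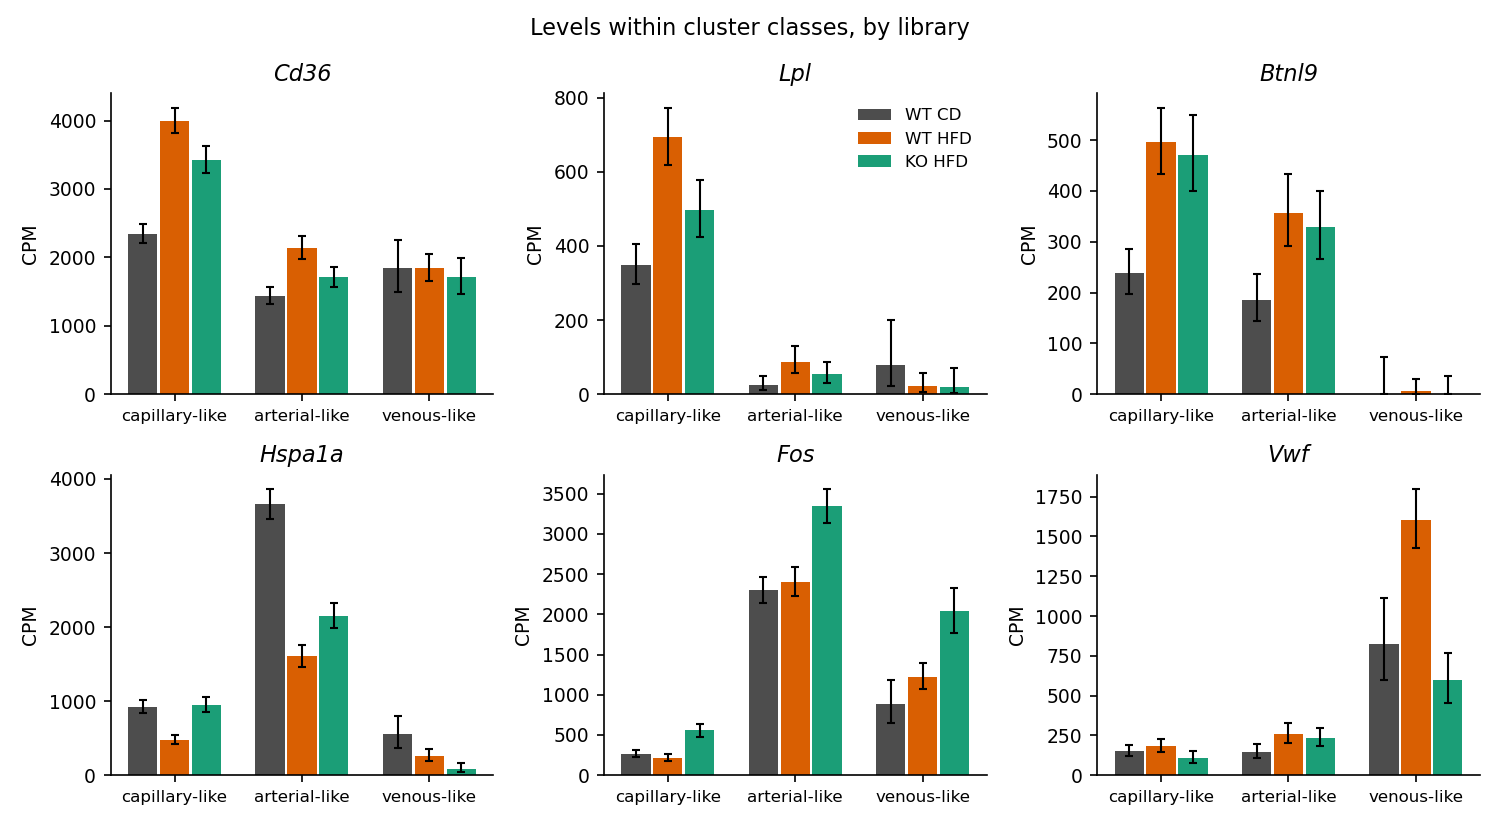
Levels of Cd36, Lpl, Btnl9, Hspa1a, Fos and Vwf in the capillary-like, arterial-like and venous-like cells of each library (CPM of summed UMIs; bars start at 0, error bars are 95% Poisson intervals). Cd36 is 2348 CPM in WT CD and 4001 CPM in WT HFD in capillary-like cells and 1848 and 1842 CPM in venous-like cells, Lpl is highest in capillary-like cells, and Btnl9 is at or near 0 in venous-like cells.

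The fatty acid genes were also read in the other classes of the same libraries, at their own depths. Cd36 was 80.4, 272 and 280 CPM in leukocytes, 21.2, 107 and 118 CPM in lymphatic endothelium and 0.59, 1.17 and 0.51 CPM in fibro-adipogenic progenitors. The log2 ratio of WT HFD to WT CD was 1.76 (1.61 to 1.91) in leukocytes and 2.33 (1.28 to 3.59) in lymphatic endothelium. A higher Cd36 level in WT HFD was found in the barcodes of these classes too, and the ratio in the blood endothelial cells, 0.60, was below both intervals. The lymphatic class of 261 barcodes allowed UMIs of Pecam1, Flt1 and Ptprb. Of all 1054 barcodes with 3 or more UMIs summed over these genes, 157 held Mmrn1, counted without regard to Ptprc, Pdgfra or Pax7. The part of background transcripts or doublets in these levels was not tested. Fabp4 was 13.5, 254 and 76.9 CPM in leukocytes, far under its endothelial level. Lpl was 484, 616 and 601 CPM in fibro-adipogenic progenitors and 244, 533 and 755 CPM in leukocytes.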

How the data were processed

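The authors aligned the reads of each library to the mouse genome (mm10) and counted them with Cell Ranger 6.1.1 (both from the submitters' processing notes), and deposited filtered gene by barcode matrices of UMI counts, with 32285 features and 1 matrix for each of the 3 libraries. Total depth was 34312860 UMIs in WT CD, 31967976 in WT HFD and 36478779 in KO HFD. All barcodes were kept, and no doublet was removed in the values reported. Endothelial cells were chosen by the rule in the report, from UMI counts, and the members, gene lists and rules were chosen with earlier results of these data known. Counts were summed over the members of each library and divided by their total. Intervals were exact (Poisson for levels, conditional binomial for ratios, Clopper-Pearson for shares, all 95%), and cover counting error only, so that cell to cell variation makes the true uncertainty wider. A zero entered ratios as 3 UMIs. Named genes were the listed genes and the 10 largest called ratios in each direction, and list medians used genes with 10 or more UMIs over both libraries of a comparison.

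Members were clustered with scanpy 1.11.5 and leidenalg 0.10.2 (1500 variable genes, 20 components, 15 neighbours, resolution 0.5). A cluster was named when the mean log2 ratio of a segment's markers was at least 0.5 (pseudocount 10 CPM), with 3 markers found in 10% of its cells and 1 among its 10 leading genes. These naming thresholds were set after the clusters had been seen. Alternatives were TMM scaling (edgeR 4.0.16, used for the scaling factors), leaving out mitochondrial and ribosomal protein genes, a mean over cells, minimum levels of 20 and 100 CPM, a rule minimum of 5 UMIs, no zero requirement, a filter of 500 genes and 10% mitochondrial UMIs, thinning to 3000 UMIs, removal of doublets called by Scrublet, removal of members with mural or fibroblast UMIs, capillary-like cells alone and other clusterings. Removal of members with 3 or more leukocyte, immunoglobulin, mural or fibroblast UMIs, and of the top member of each gene, were added after seeing the data. Gene coordinates were on GRCm38. The procedure was tested on simulated counts.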

Additional observations from a re-analysis of the deposited data

How the results depend on the processing

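Of the values that answer a comparison, 274 stayed within their interval or 1.5 times under an alternative and 62 moved further, and of the ratios of single genes 3134 stayed, 331 moved and 41 reversed. The minimum levels of 20 and 100 CPM change only which genes can be called, so no ratio or list median could move under them. Each of these settings gave 302 of the gene ratios that stayed. No paired analysis was possible because each group was 1 library, and for the same reason no replicate could be left out. The endothelial share was 6.26% in WT HFD and 4.11% in KO HFD with the quality filter, 4.42, 5.05 and 3.30% in WT CD, WT HFD and KO HFD with barcodes thinned to 3000 UMIs (4.29, 5.14 and 3.27% unthinned), which left out 116, 95 and 97 members, and 8.30, 10.5 and 7.16% without the zero requirement. Genes lower in WT HFD than in WT CD numbered 106 with TMM scaling and 105 with a mean over cells, and genes higher in KO HFD than in WT HFD 110 without mitochondrial and ribosomal protein genes. With a minimum of 20 CPM, 300 were higher and 173 lower in the first comparison and 163 and 220 in the second, and with 100 CPM 51 and 22, and 31 and 26. In capillary-like cells alone the medians in the first comparison were 0.36 for capillary, 0.48 for venous, 0.49 for fatty acid, 0.51 for interferon, 0.19 for MHC and -0.48 for immediate early genes, and in the second -0.29 for interferon, -0.32 for MHC and 0.64 for immediate early genes. Without mural and fibroblast UMIs the capillary median was 0.37 (0.35 without leukocyte and immunoglobulin UMIs as well, the wider removal). The MHC median in the first comparison was 0.31 with a mean over cells, -0.37 with a rule of 5 UMIs, 0.082 without mural and fibroblast UMIs, 0.037 with the wider removal and 0.041 without each gene's top cell, and in the second -0.48 with 5 UMIs, -0.68, -0.0032 and -0.54 under the last 3. At resolution 1 capillary-like cells were 31.8, 34.6 and 32.6% and arterial-like cells 12.4, 11.03 and 11.01%. With all genes capillary-like cells were 19.7, 24.6 and 18.1% and arterial-like cells 33.6, 25.7 and 33.5%. With each cell assigned singly by its marker genes, capillary cells were 32.1, 45.2 and 40.5%, arterial cells 48.5, 32.4 and 40.5%, and venous cells 19.3, 22.4 and 18.9%. Reversed ratios of WT HFD to WT CD with a rule of 5 UMIs were C1qa -3.24, C1qb -3.24, Cd74 -0.89, H2-Aa -1.06, H2-Ab1 -0.72, H2-Eb1 -2.13, Lyz2 -2.40 and Pf4 -0.57. Without mural and fibroblast UMIs they were Cd74 -0.83, Col3a1 -1.96, H2-Eb1 -0.33, Hist1h2ap -0.33, Lyz2 -0.48, Mgp -0.58 and Rgs5 -0.68, and with the wider removal Cd74 -0.62, Col3a1 -1.99, H2-Eb1 -1.31, Hist1h2ap -0.84, Lyz2 -0.50, Mgp -0.59 and Rgs5 -0.81. In capillary-like cells they were Cd74 -1.20, Cxcl1 -0.32, Hist1h2ap -1.39, Lyz2 -1.39, Mgp -1.56 and Tagln -2.71, and without the top cell Cd74 -0.89, H2-Eb1 -0.32 and Lyz2 -0.61. Reversed ratios of KO HFD to WT HFD were Vcam1 -0.14 with 5 UMIs, Cd74 0.87, Irgm1 -0.15, Myl9 -1.54 and Vcam1 -3.00 in capillary-like cells, Cd74 0.54, H2-Aa 0.063, H2-Ab1 0.38 and H2-Eb1 2.19 with the wider removal, and Myl9 -0.87 without the top cell. The heat shock medians ran from -0.52 to -0.40 in the first comparison and from 0.25 to 0.38 in the second. Genes under 50 CPM in both libraries could not be called by the rule, and at 20 CPM the depth of 227 to 274 cells still gave calls. The cause of each change was not tested.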

Other observations

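The metallothioneins Mt1 and Mt2, small proteins that bind zinc and copper and are induced by metals, glucocorticoids and stress, were in no list and were picked after their values were seen. Mt1 was 63.3 CPM in WT CD, 178 in WT HFD and 428 in KO HFD, and Mt2 was 27.3, 61.6 and 162 CPM. Over all cells both were lowest in WT CD and highest in KO HFD, but a large part of the UMIs lay in few cells. Of 65, 202 and 387 Mt1 UMIs, 22, 100 and 244 came from the 3, 12 and 9 cells of the cluster led by Igfbp5, Dcn and Myh11. Without the cells that carried other cell types' markers Mt1 was 41.0, 97.6 and 148 CPM and Mt2 17.1, 13.8 and 46.5 CPM, so that the order of Mt2 in WT CD and WT HFD turned. Within the segments Mt1 was 16.9, 19.3 and 11.8 CPM in capillary-like cells and 80.0, 277 and 359 CPM in arterial-like cells. In venous-like cells it had 0 UMIs in WT CD, where 3 UMIs are 59.0 CPM, and stood at 49.8 and 313 CPM in the HFD libraries. The log2 ratio of WT HFD to WT CD was 1.79 (1.15 to 2.47) in arterial-like cells and 0.20 (-1.35 to 1.77) in capillary-like cells, which had few Mt1 UMIs.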
